A study of Drosophila melanogaster and Drosophila arizonae and Drosophila mojavensis with 18 samples.

Results

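The larval serum proteins and fat body proteins of *D*. *melanogaster* were followed by their 6 genes, *Lsp1alpha* (FBgn0002562), *Lsp1beta* (FBgn0002563), *Lsp1gamma* (FBgn0002564), *Lsp2* (FBgn0002565), *Fbp1* (FBgn0000639) and *Fbp2* (FBgn0000640), out of 17239 genes in the table of that species. The ortholog of *Fbp1* in *D*. *mojavensis*, FBgn0134299 (GI11539), was added from a table of 15180 genes. The genes were taken by name, with earlier results of these data known. All 7 had enough fragments to be tested. RNA-Seq was made from whole larvae in the third instar that had spent 24 h on an experimental diet. The study names the diets high protein and low sugar (HPLS), equal protein and sugar (EPS), and low protein and high sugar (LPHS). They were isocaloric, with yeast as the source of protein and sucrose as the sugar. EPS held equal weights of yeast and sucrose, HPLS more yeast and LPHS more sucrose. Stocks of both species were kept on banana-opuntia medium, adults laid eggs in yeasted chambers, and larvae were moved to the experimental diets early in the third instar. Each diet had 2 libraries per species, numbered S1 and S2 in their labels, which gives 6 libraries per species. The study used 2 isofemale strains of each species. No source states that S1 and S2 are these strains, so strain and batch cannot be told apart. Nothing in the labels says that S1 and S2 came from separate cultures, and p-values then measure the spread between these libraries, which may be technical.

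Larval serum proteins are hexamerins, large storage proteins made of 6 subunits. The fat body, the insect counterpart of liver and fat tissue, makes them in the third instar and secretes them into the hemolymph, and before pupation it takes them up again as a store of amino acids for building the adult. *Lsp1alpha*, *Lsp1beta* and *Lsp1gamma* encode the subunits of Lsp1, and *Lsp2* encodes the subunit of a second hexamerin. *Fbp1* encodes the receptor with which the fat body takes storage proteins up, and it is known as a gene that the molting hormone ecdysone switches on late in the third instar. *Fbp2* encodes a fat body protein related to alcohol dehydrogenase.

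The genes lie apart in release 6 of the *D*. *melanogaster* genome. *Lsp1alpha* is on chromosome X (12490291 to 12492982, forward strand) with 2625 bases of exon, of which 2448 are coding. *Lsp1beta* is on 2L (898500 to 901316, forward strand) with 2749 bases of exon. *Lsp1gamma* is on 3L (66430 to 68995, forward strand) with 2501 bases of exon. *Lsp2* is also on 3L (12129393 to 12131869, forward strand), with 2477 bases of exon, and it overlaps the antisense RNA gene asRNA:CR11538. *Fbp1* is on 3L as well (14094589 to 14098053, reverse strand), with 3465 bases of exon. *Fbp2* is on 2L (9426784 to 9427917, forward strand) with 1074 bases of exon, and it overlaps *CG42847*. The libraries did not mark strand, so reads of overlapping genes cannot be told apart. The neighbours were nevertheless assigned few fragments, at most 1 in any library for asRNA:CR11538 and 39 to 354 for *CG42847*, against 9322 to 263674 for *Fbp2*.

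The libraries held 13219687 to 32807694 fragments in genes in *D*. *melanogaster* (median 17717018) and 6819503 to 9910492 in *D*. *mojavensis* (median 8581538). The deepest library, S2 on HPLS of *D*. *melanogaster*, stands apart. It lists *Lsp1beta*, *Lsp1gamma* and *Lsp2* at 0, although the other 5 libraries have deposited values of at least 351123, 387835 and 81486.3 for these genes. The mitochondrial ribosomal RNA gene mt:lrRNA is likewise at 0 there, and at 426076 or more elsewhere. *Lsp1alpha* has 771297 fragments in this library, and *Lcp4*, its highest gene, has 959241. The 3 storage protein zeros were therefore treated as missing, and these genes have 5 values each. Values below are normalized counts, that is, deposited values scaled between libraries by the TMM method. Differences are on the log2(value + 1) scale with their standard errors, from limma fitted to all 12324 tested genes of *D*. *melanogaster* or 9724 of *D*. *mojavensis*. A gene was called where its p, adjusted by the Benjamini-Hochberg method over all tested genes of the comparison, did not exceed 0.05.

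Storage protein RNA made up a large part of each library. The 4 *Lsp* genes took 7.69% and 7.87% of all fragments in S2 on EPS and LPHS. In S1 they took 7.52% on HPLS, 5.89% on EPS and 5.74% on LPHS. With *Fbp1* and *Fbp2* added, the 6 genes took between 5.92% and 8.57% in the 5 complete libraries. In the incomplete library, S2 on HPLS, the 3 genes with a value took 3.97%, of which *Lsp1alpha* alone took 2.35%. The total of that library lacks the missing genes, so its shares are higher than they would be with them. The 95% binomial interval (Wilson) of each gene's share reached at most 0.00876 percentage points to either side, and it covers counting error only. These are shares of RNA from whole larvae, in which fewer fat body cells and less RNA per cell cannot be told apart.

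Set per length of exon, the order of the genes was nearly the same in the complete libraries. *Lsp1gamma* was the highest of the 6 in each, with an FPKM, computed here from the recovered fragments and the exon lengths, of 9872 to 11983. It ranked between 3 and 7 among the 16939 genes with an exon length. *Lsp1beta* followed with 7665 to 10294. *Lsp1alpha* had 1681 to 8956 over 6 libraries and *Lsp2* had 2106 to 7442 over 5. *Fbp2* had 455 to 7483 and *Fbp1* had 2.47 to 2351. *Lsp1alpha* and *Lsp2* changed places between libraries, and so they have no fixed order. *Fbp1* was below *Fbp2* in all 6 libraries, and its rank ran from 39 in S2 on HPLS to 8588 in S1 on EPS, the widest range of the group. The highest values of *Lsp1alpha*, *Fbp2* and *Fbp1* are those of S2 on HPLS, where the total without the missing genes raises them.

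The Lsp1 subunit genes did not keep one ratio to each other. *Lsp1beta* stood at 0.727 and 0.859 of *Lsp1gamma* per length in S2 on EPS and LPHS, and at 0.792, 0.820 and 0.824 in S1 on HPLS, EPS and LPHS. The ratio of *Lsp1alpha* to *Lsp1gamma* spread further. It was 0.400 and 0.274 in S2 on EPS and LPHS, and 0.451, 0.208 and 0.170 in S1 on HPLS, EPS and LPHS. The ratio was thus lowest on LPHS in both sets of libraries. *Lsp2* stood at 0.706 and 0.398 of *Lsp1gamma* in S2 on EPS and LPHS, and at 0.429, 0.208 and 0.245 in S1 on HPLS, EPS and LPHS. The ratios are a description, and differences between them were not tested.

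**Figure D1:**
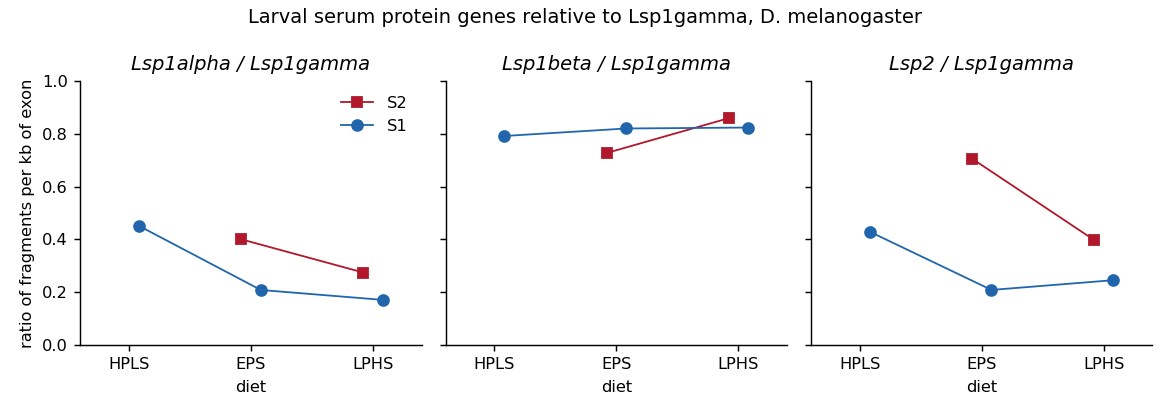
Ratio of fragments per kb of exon of *Lsp1alpha*, *Lsp1beta* and *Lsp2* to *Lsp1gamma* by diet in *D*. *melanogaster*, with 1 point per library (S2 red squares, S1 blue circles). *Lsp1beta* stays between 0.727 and 0.859, while *Lsp1alpha* runs from 0.170 to 0.451 and *Lsp2* from 0.208 to 0.706, and S2 on HPLS has no ratio because *Lsp1gamma* is missing there.

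The first question was whether the members differed between diets in *D*. *melanogaster*. None of the 6 was called by limma in any comparison between diets, and neither was any other gene (0% of all tested genes). *Lsp1alpha* and *Fbp2* were lower on LPHS than on HPLS in both S1 and S2, while *Lsp1beta* and *Lsp1gamma* stayed within a narrow range. *Lsp2* was also lower on LPHS in S1, the only set with both values. *Fbp1* went opposite ways in S1 and S2. Over the 6 genes the median log2 difference was -0.94 in LPHS-HPLS, -0.64 in EPS-HPLS and -0.09 in LPHS-EPS, beside -0.01, -0.01 and -0.0018 over all tested genes. None of the 6 had an unadjusted p of at most 0.05 in these comparisons, while 181, 44 and 26 genes of the whole table had one under 0.05. Salivary glue genes mark another tissue. All 6 had fitted differences below 0 in LPHS-HPLS and in EPS-HPLS, with medians of -1.41 and -1.87 and 0 called. In EPS-HPLS they lay at -4.04 to -3.05 in S1 but at -0.81 to 0.045 in S2, where *Sgs5* was above 0. Their summed normalized counts were 38430 to 260514 on HPLS, 3531.97 to 234739 on EPS and 15935.5 to 77221.5 on LPHS. All 5 gut markers were above 0 in LPHS-HPLS, with a median of 0.68 and 0 called. Also above 0 there were 4 of 4 muscle markers (median 0.22), 3 of 4 hemocyte markers (0.40) and 1 of 3 neuron markers (-0.30). Of 3 fat body markers, 2 were above 0 in LPHS-HPLS (median 0.12) and 3 in EPS-HPLS (median 0.16). Of all these markers 0 were called. The part of these tissues in the values of the members was not tested.

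*Lsp1alpha* showed the most even pattern. Its normalized counts on HPLS, EPS and LPHS were 422884, 209974 and 159433 in S2, and 236234, 104307 and 83814.5 in S1. Each set of libraries was highest on HPLS and lowest on LPHS, yet the groups overlapped, since S2 on LPHS lay above S1 on EPS. The means were 329559 ± 131981 on HPLS, 157141 ± 74718 on EPS and 121624 ± 53471 on LPHS (SD, n = 2 each). The log2 difference in LPHS-HPLS was -1.45 (standard error 0.60, limma adjusted p = 1.00), with -1.41 in S2 and -1.49 in S1. With the replicate number as a block in the model, since same-numbered libraries deviated together, the standard error was 0.27 and the unadjusted p was 0.0016, but the adjusted p was 0.289. A trend over the 3 diets in equal steps gave -0.73 per step (standard error 0.27, unadjusted p = 0.035, limma adjusted p = 1.00). With the block its adjusted p was 0.134, in a fit that called 0.114% of all tested genes.

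*Lsp1beta* and *Lsp1gamma*, the most abundant of the group, varied little. *Lsp1beta* had 399841 on EPS and 523435 on LPHS in S2, and 434184, 431016 and 424576 on HPLS, EPS and LPHS in S1. *Lsp1gamma* had 500271 on EPS and 554374 on LPHS in S2, and 498999, 478169 and 468968 on HPLS, EPS and LPHS in S1. In S1 the 3 diets lay within 0.03 of each other on the log2 scale for *Lsp1beta* and within 0.09 for *Lsp1gamma*. In S2, which has no HPLS value, LPHS lay above EPS by 0.39 for *Lsp1beta* and 0.15 for *Lsp1gamma*. The log2 differences in LPHS-HPLS were 0.12 (standard error 0.63) and 0.03 (standard error 0.64), with a single HPLS value each and errors larger than the differences.

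*Lsp2*, the other hexamerin gene, was higher in S2 than in S1 on both diets where the sets can be compared. It had 349791 on EPS and 218412 on LPHS in S2, and 212066, 98489 and 113765 on HPLS, EPS and LPHS in S1. The diets overlapped. The log2 difference in LPHS-HPLS was -0.43 (standard error 0.96, limma adjusted p = 1.00). With the replicate block it was -1.12 (standard error 0.47, adjusted p = 0.668), because the missing HPLS value belongs to S2.

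*Fbp2* was highest on HPLS in both sets of libraries. It had 144566, 68064 and 23943 on HPLS, EPS and LPHS in S2, and 36700, 9225 and 12994 in S1. The lowest S1 value was on EPS, and the lowest S2 value on LPHS. The log2 difference in LPHS-HPLS was -2.05 (standard error 1.11, limma adjusted p = 1.00), with -2.59 in S2 and -1.50 in S1. It was lower than that of all but 0.333% of the tested genes. With the replicate block the standard error was 0.45 and the adjusted p was 0.323. The difference was -3.04 without S1 on HPLS and -1.07 without S2 on HPLS.

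*Fbp1*, the receptor gene, had the largest spread. Its normalized counts on HPLS, EPS and LPHS were 146524, 98560 and 13678 in S2, and 16722, 161 and 20130 in S1. The S1 library on EPS thus held 178 fragments of *Fbp1*, where the other 5 libraries held 12033 to 267244. In S2 *Fbp1* was lower on LPHS than on HPLS, by -3.42 on the log2 scale, and in S1 it was higher by 0.27. The log2 difference in LPHS-HPLS was -1.58 (standard error 2.94, limma adjusted p = 1.00), and in EPS-HPLS it was -3.63 (standard error 2.94). *Fbp1* was lower on EPS than on HPLS in both sets, by -0.57 in S2 and -6.69 in S1 on the log2 scale. In LPHS-EPS the sets went opposite ways, with -2.85 in S2 and 6.95 in S1, and the fitted difference was 2.05, or -2.57 without S1 on EPS. Without that library the fit for EPS-HPLS, which then sets S2 alone on EPS against both HPLS libraries, gave 0.99 (standard error 1.29). The other members were not as low there, since *Fbp2* had 10176 fragments and *Lsp1gamma* 527453.

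**Figure D2:**
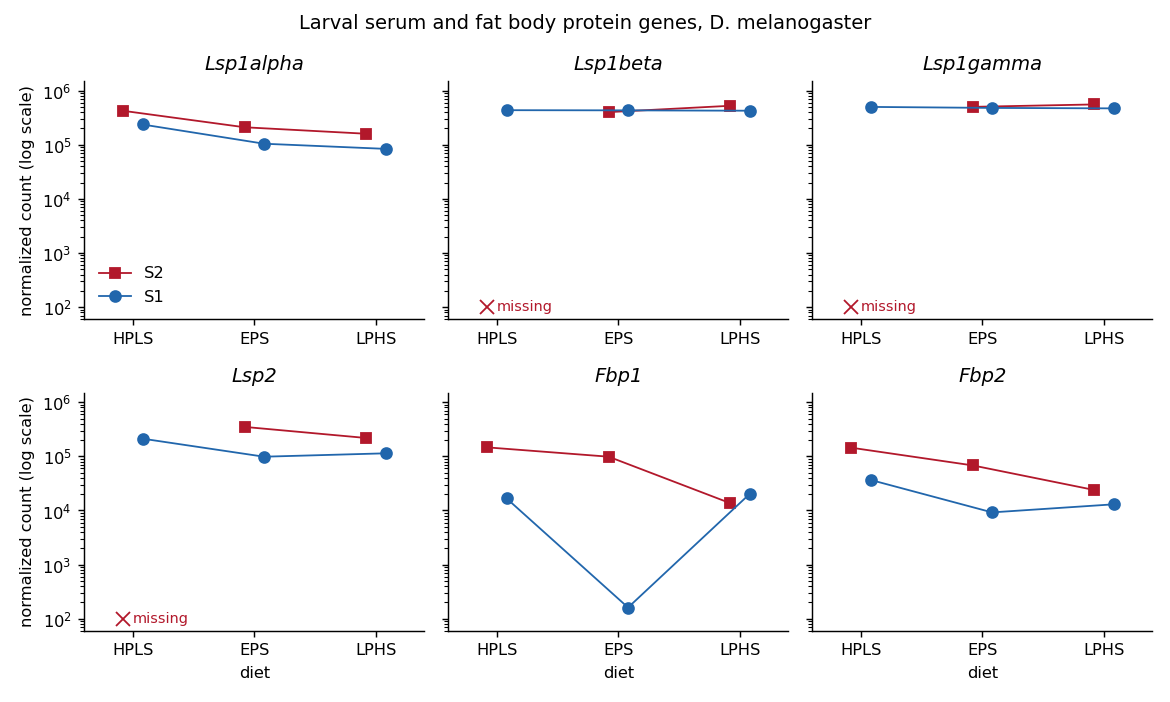
Normalized counts (log scale) of the 6 genes by diet in *D*. *melanogaster*, with 1 point per library (S2 red squares, S1 blue circles, a cross where the value is missing). *Lsp1beta* and *Lsp1gamma* lie between 399841 and 554374 in all libraries with a value, *Lsp1alpha* is ordered HPLS, EPS, LPHS from high to low in both sets, and *Fbp1* is at 161 in S1 on EPS.

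The second question was how the 2 sets of libraries differed. All 6 genes had a fitted S2-S1 difference above 0, and 2 of the 6 were called higher in S2, *Lsp1alpha* and *Fbp2*, in a comparison that called 16.4% of all tested genes. The median of the 6 differences was 1.16, beside 0.02 over all tested genes. *Lsp1alpha* rose by 0.93 (standard error 0.22, limma adjusted p = 0.0413), with 0.84 on HPLS, 1.01 on EPS and 0.93 on LPHS. *Fbp2* rose by 1.91 (standard error 0.36, limma adjusted p = 0.0243), with 1.98, 2.88 and 0.88 on HPLS, EPS and LPHS. S2-S1 was fitted with diet as a term, so leaving out either library of a diet takes that whole diet out of the difference. The call of *Fbp2* was kept with any library left out. That of *Lsp1alpha* was lost with each library left out in turn, at adjusted p values of 0.0599 to 0.233, while its difference stayed between 0.88 and 0.96.

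*Lsp2* missed the threshold, with a difference of 1.38 (standard error 0.35, limma adjusted p = 0.0588) and 1.83 and 0.94 on EPS and LPHS. *Fbp1* had the largest difference and the largest error, 3.94 (standard error 1.65, limma adjusted p = 0.144), made of 3.13 on HPLS, 9.25 on EPS and -0.56 on LPHS. With either LPHS library left out, and so without LPHS in the difference, *Fbp1* was called. It was at 6.18 without S2 and 6.19 without S1 (limma adjusted p = 0.0240 and 0.0208). Without S1 on EPS, and so without EPS in the difference, it was at 1.29. *Lsp1beta* and *Lsp1gamma* differed by 0.10 (standard error 0.38) and 0.15 (standard error 0.38). Whether the S2-S1 differences of the genes differ from each other was not tested.

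**Figure D3:**
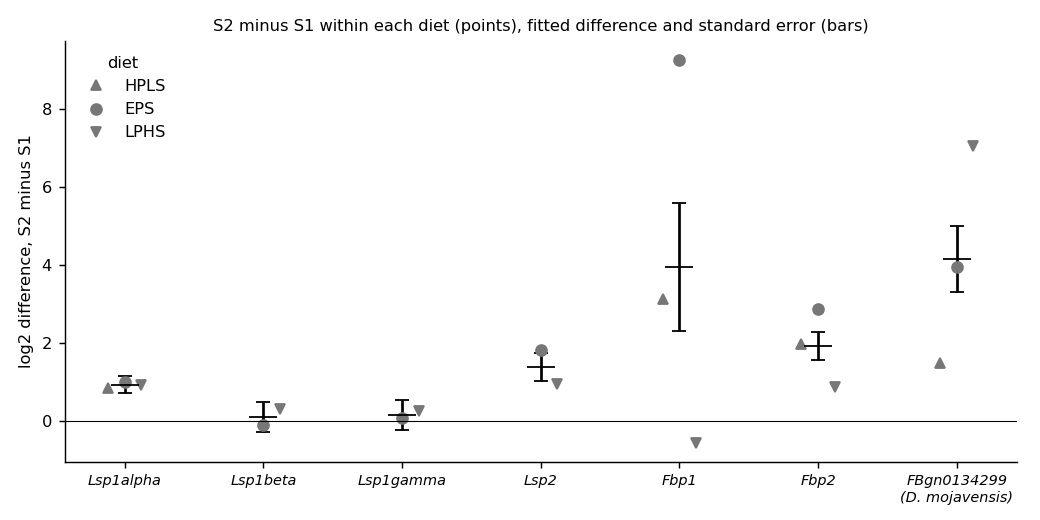
Log2 difference of S2 minus S1 within each diet (grey points) for the 6 *D*. *melanogaster* genes and FBgn0134299 of *D*. *mojavensis*, with the fitted difference and its standard error (black). *Lsp1alpha* lies between 0.84 and 1.01 on the 3 diets, *Lsp1beta* and *Lsp1gamma* lie near 0, and *Fbp1* spreads from -0.56 to 9.25.

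Genes of neighbouring roles were counted in the same comparison, S2-S1, which called 16.4% of all tested genes. The lists were chosen with earlier results of these data known, and their counts are descriptions. All 6 salivary glue genes, which the larva expresses before pupariation (*Sgs1*, *Sgs3*, *Sgs4*, *Sgs5*, *Sgs7* and *Sgs8*), were called higher in S2, by 3.15 to 4.31 on the log2 scale with a median of 3.54. Their summed normalized count was 77221.5 to 260514 in S2 and 3531.97 to 38430 in S1, with none at 0 in any library. The lowest of these sums, 3531.97, was in S1 on EPS, the library in which *Fbp1* was lowest. The part of this difference in the values of *Fbp1* and the other members was not tested. Of 3 fat body markers, *Lsd-1*, which coats lipid droplets, was called higher in S2 by 0.81. The summed count of the 3 was 91728.8 to 123574 in S2 and 65007.5 to 91950.7 in S1, so that the sets overlapped. Most of that sum was *apolpp*, with 115179 in S2 and 60895.5 in S1 on HPLS. Its S2-S1 difference was 0.92 on HPLS, -0.015 on EPS and 0.044 on LPHS. Markers of other tissues were called in S2-S1 in either direction, with 1 of 5 gut markers higher (*alphaTry*, 1.70) and 1 lower (*Jon99Ci*, -1.52), 1 of 4 muscle markers lower (*up*, -0.87), 1 of 4 hemocyte markers higher (*NimC1*, 0.66) and 1 of 3 neuron markers higher (*Syt1*, 1.06). Their part in the values of the members was not tested.

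Of 9 genes for uptake and lysosomal delivery, 1 was called in S2-S1, beside 16.4% of all tested genes. It was *cathD*, a lysosomal protease, higher in S2 by 1.67. Of 14 other genes whose proteins the fat body secretes, 2 were called higher, *Obp99b*, a secreted odorant-binding protein, by 1.69 and *Idgf6*, a growth factor of the imaginal disc growth factor family, by 0.57. Among 3 relatives of the hexamerins, *CG8100* was higher by 3.18, with 1635 to 3455 in S2 and 161 to 390 in S1, and the phenoloxidase gene *PPO2* was lower by -0.51. *Adh* and *Adhr*, the relatives of *Fbp2*, were both called in the other direction than *Fbp2*, at -1.40 and -1.32. None of 11 ecdysone-linked regulators was called by limma, with a smallest adjusted p of 0.0621, 2 genes at an unadjusted p under 0.05 and a median difference of -0.05. Of the 45 tested genes of these lists outside the marker lists, 0 were called by limma in LPHS-HPLS and 2 had an unadjusted p under 0.05, and with the replicate block 0 were called as well.

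Genes nearest to the average of the 4 *Lsp* genes were taken from 8605 tested genes with a mean of at least 100. The measure was the root mean square difference from the average centred log2 profile over the 5 complete libraries. *Lsp1beta* and *Lsp1gamma* varied little and *Lsp1alpha* and *Lsp2* more, so nearness to this average is not likeness to any single *Lsp* gene. The 5 nearest were *CG14414*, *CG2812*, *CG2310*, *CG7110* and *Lime*, with differences of 0.082 to 0.090. The median over all genes compared was 0.359, and genes picked as nearest lie below it by construction.

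*Fbp1* was then set beside its *D*. *mojavensis* ortholog, FBgn0134299. The study picked this gene out on the same libraries, so its direction between diets is not independent evidence. With cuffdiff2 the study called it lower on LPHS than on HPLS, and likewise the ortholog in *D*. *arizonae*. The study also reports that RT-qPCR of both genes went in the same direction. FBgn0134299 was much the rarer, taking 0.0172% of the fragments at most, in S2 on HPLS. *Fbp1* took up to 0.815% in the same set and diet of *D*. *melanogaster*, of a total that lacks the missing genes. The tables were normalized separately, and the levels of the species were not compared by a test. Normalized counts of FBgn0134299 on HPLS, EPS and LPHS were 1490, 266 and 485 in S2, and 535, 16.2 and 2.69 in S1. HPLS was highest in both sets, as it was for *Fbp1* in S2 but not in S1. The lowest value was on EPS in S2 and on LPHS in S1, where 3 fragments were counted against 535 on HPLS, a ratio of 0.00502 with a 95% counting interval of 0.00103 to 0.0147 (exact Clopper-Pearson). In S2 the ratio of LPHS to HPLS was 0.326 (0.293 to 0.362).

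Unlike in the study, FBgn0134299 was not called between diets here. The log2 difference in LPHS-HPLS was -4.40 (standard error 2.30, limma adjusted p = 0.584), in a comparison that called 0.0206% of all tested genes, with -1.62 in S2 and -7.19 in S1. It was -7.91 without S2 on LPHS and -0.88 without S1 on LPHS. With the replicate block, which called 5.51%, the standard error was 1.04 and the adjusted p was 0.0563. The difference was -2.05 in edgeR's quasi-likelihood test and in DESeq2 on the recovered fragments (adjusted p = 0.754 and 0.990). In EPS-HPLS it was -3.72 (limma adjusted p = 1.00, and 0.333 with the block, where 0.185% of genes were called), and -5.68 without S2 on EPS or -1.75 without S1 on EPS. The trend over the diets was -2.20 per step (limma adjusted p = 0.45, and 0.0524 with the block), in fits that called 0.123% and, with the block, 9.23% of the tested genes. In LPHS-EPS the sets went opposite ways, with 0.87 in S2 and -2.22 in S1.

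The fitted S2-S1 difference of the ortholog was above 0, as were those of the *D*. *melanogaster* members, of which 2 of 6 were called. FBgn0134299 was called in S2-S1, at 4.16 (standard error 0.85, limma adjusted p = 0.0241), where 13.3% of all tested genes were called. The difference was 1.48 on HPLS, 3.95 on EPS and 7.04 on LPHS, and the call was kept in each of the 12 alternatives. The number S2 is only a label shared between species, so the direction in one species says nothing of the other. Whether *Fbp1* and its ortholog responded differently to diet was not tested.

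**Figure D4:**
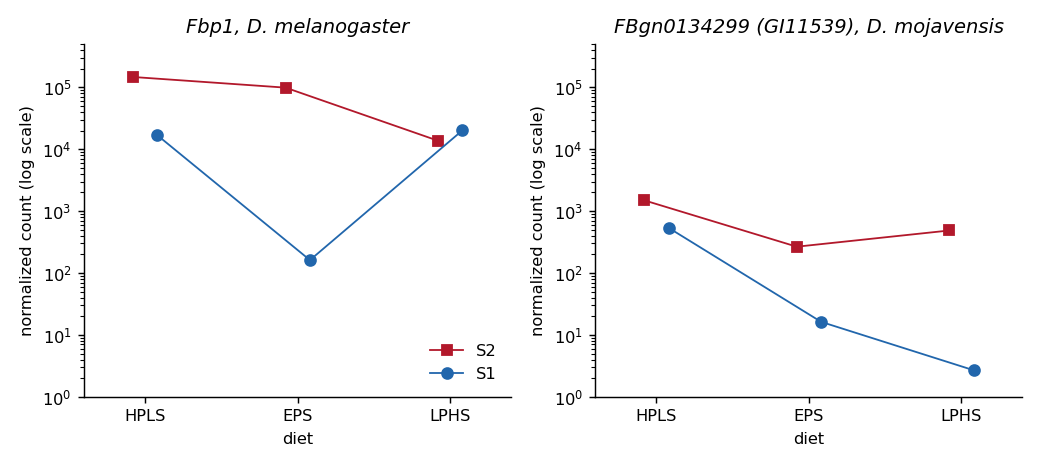
Normalized counts (log scale) by diet of *Fbp1* in *D*. *melanogaster* (left) and FBgn0134299 in *D*. *mojavensis* (right), with 1 point per library (S2 red squares, S1 blue circles). The lowest *Fbp1* library is S1 on EPS at 161, and the lowest library of the ortholog is S1 on LPHS at 2.69, with 3 fragments.

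The genes of *D*. *mojavensis* whose profile over the 6 libraries was most like that of FBgn0134299 were led by FBgn0143881 and FBgn0137536. The 5 nearest had root mean square differences of 1.48 to 2.11 on the log2 scale, beside a median of 3.07 over 6226 genes, and the files give them no names.

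Genes of hexamerins and their relatives in *D*. *mojavensis* were also counted. FBgn0145801, which the study names as the ortholog of *Lsp1beta* and picked on these libraries, had 442707, 264357 and 139195 on HPLS, EPS and LPHS in S2, and 421310, 324692 and 150188 in S1. The diets did not overlap, and the sets lay close together. How many of all tested genes separate by diet in this way was not counted. Its log2 difference in LPHS-HPLS was -1.58 (standard error 0.19, limma adjusted p = 0.108, and 0.0037 with the replicate block), and its trend of -0.79 per step was called (limma adjusted p = 0.0495). That call was lost with each library left out in turn, at adjusted p values of 0.0559 to 0.216 and trends of -0.84 to -0.72, and with RLE scaling (adjusted p = 0.0530) or no filter (0.178). It was kept with the replicate block (adjusted p = 0.0024), library totals (0.0499), a pseudocount of 10 (0.0450), edgeR's quasi-likelihood test (0.0464) and DESeq2 (3.5e-10). In LPHS-HPLS the gene was called by DESeq2 (adjusted p = 8.2e-11), which called 197 of 8847 genes, but not by edgeR's quasi-likelihood test (0.0837). *Lsp1beta* of *D*. *melanogaster* had a trend of 0.08 per step (standard error 0.24). The difference between the species was not tested. The 2 other genes are annotated by the study as orthologs of *CG8100* (FBgn0136517) and of the phenoloxidase gene *PPO1* (FBgn0142026), which is not a storage protein gene. They were picked on these libraries too, so their direction is not independent evidence. Their log2 differences in LPHS-HPLS were -1.66 and -1.76 (limma adjusted p = 0.257 and 0.249). With the replicate block, which called 5.51% of all tested genes, the adjusted p values were 0.0236 and 0.0045. They were 0.0031 and 0.0023 in DESeq2, and 0.252 and 0.271 in edgeR's quasi-likelihood test.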

How the data were processed

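Per the labels, the libraries were made from poly(A) RNA with a kit that does not mark strand. The authors mapped read pairs with TopHat2 and ran cuffdiff2, and deposited 1 signal value per gene and library. These deposited signal values are fragment counts multiplied by 1 step per library (0.639 to 1.28 in *D*. *melanogaster*, 0.932 to 1.10 in *D*. *mojavensis*). Division by the step gave whole numbers for 96.5 to 97.1% of the *D*. *melanogaster* values and for 100.0% of the *D*. *mojavensis* values. The tolerance was 0.01 steps, and wider for large values, so that the very highest values pass in any case. The *D*. *arizonae* table and the authors' comparison columns, which hold fold changes and p-values, were not used here.

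The members and lists were chosen with earlier results of these data known. The 7 genes and every called gene of the lists were named. Values were scaled by TMM and filtered by filterByExpr (edgeR 4.0.16, minimum count 10), a pseudocount of 1 was added, and the 3 diets were fitted with limma 3.58.1 (R 4.3.3), without a block, after the study's pairwise comparisons. A 0 in S2 on HPLS of *D*. *melanogaster* was missing where each other library had at least 100. S2-S1 was fitted with diet as a term, so the leave-outs of the 2 libraries of a diet are not separate checks of that difference. Same-numbered libraries deviated together from their diet means in each pair of diets, with correlations across genes of 0.548 to 0.761 in *D*. *melanogaster* and 0.518 to 0.702 in *D*. *mojavensis*, so the replicate number was taken to pair them. The alternatives were the replicate block, other scaling, a pseudocount of 10, no filter, zeros as measured, each library left out, and for *D*. *mojavensis* edgeR's quasi-likelihood test and DESeq2 1.42.0 on recovered fragments. Of the lists, *PPO1*, *br* and *FASN1* were not matched to the table. Python 3.11.15 made the tables and figures.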

Additional observations from a re-analysis of the deposited data

How the results depend on the processing

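Each diet had 2 libraries, and whether the spread between them or the depth limited the comparisons was not tested. FBgn0134299 had 3 and 19 fragments in 2 libraries. Its ratios of LPHS to HPLS in S1 and S2 had counting intervals that lay apart (0.00103 to 0.0147 and 0.293 to 0.362). Of 400 values of the members under alternatives, 358 kept their direction and their side of the threshold and 32 changed direction, none of them a called value. The replicate block changed no call of a member, but turned *Lsp1gamma* to -0.046 in LPHS-HPLS and -0.0062 in the trend, and scaling by library totals turned it to -0.0019 in LPHS-HPLS. With the zeros of S2 on HPLS taken as measured, *Lsp2* was at 8.43 in LPHS-HPLS and 4.22 in the trend, *Lsp1beta*, *Lsp1gamma* and *Lsp2* were at 9.31, 9.44 and 8.66 in EPS-HPLS and at -6.17, -6.20 and -4.97 in S2-S1, by the construction of that alternative. FBgn0134299 in LPHS-EPS was 0.81 in edgeR's quasi-likelihood test and 0.78 in DESeq2, and the cause was not tested. Scaling by library totals and no filter each left 1 of the 6 members called in S2-S1, *Fbp2*. With each library left out in turn, 1 to 2 were called there, the second being *Fbp1* and not *Lsp1alpha*, and 3 members could not be tested without an EPS or LPHS library. Leaving out libraries gave ranges across 0, in LPHS-HPLS, for *Lsp1beta* (-0.046 to 0.27), *Lsp1gamma* (-0.10 to 0.15) and *Lsp2* (-0.91 to 0.043). In EPS-HPLS they were those of *Lsp1gamma* (-0.062 to 0.0037), *Lsp2* (-1.11 to 0.72) and *Fbp1* (-8.25 to 0.99). In LPHS-EPS they were those of *Lsp1alpha* (-0.86 to 0.14), *Lsp1gamma* (-0.063 to 0.18), *Lsp2* (-1.15 to 0.67), *Fbp1* (-2.57 to 6.66), *Fbp2* (-1.95 to 0.92) and FBgn0134299 (-4.20 to 2.82). In the trend they were those of *Lsp1beta* (-0.023 to 0.18), *Lsp1gamma* (-0.052 to 0.076), *Lsp2* (-0.46 to 0.021) and *Fbp1* (-1.31 to 0.28). Count tests were not run for *D*. *melanogaster*, whose values are not all whole multiples of a step.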
